A study of Mus musculus with 6 samples.

Results

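The genes described here make up the machinery that copies DNA and the enzymes that supply its deoxynucleotides. They are 49 listed genes, chosen by name with earlier results of these data known. All 49 were among the 17525 genes of the expression table and among the 15954 genes tested. They were measured by sequencing poly(A)-selected RNA from unpassaged cardiac fibroblasts, kept in serum-containing medium, of C57BL/6 mice aged 6 weeks. The 3 scramble samples received a lentivirus carrying a scramble hairpin, and the 3 knockdown samples a lentivirus carrying a short hairpin RNA against Sipa1 together with an EGFP reporter. All 6 samples were then given lipopolysaccharide (LPS, a bacterial cell-wall component) at 1 µg/ml, 72 h after the virus, and harvested 24 h later, so no unstimulated state was analysed here. The labels give 1 batch for all samples, name no hairpin sequence, and do not say whether replicates came from separate cultures or animals. P-values therefore rest on sample-to-sample spread alone, and that spread may be technical.

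Replication starts when the origin recognition complex, with Cdc6 and Cdt1, loads the ring-shaped MCM2-7 helicase onto DNA in G1 phase, a step called licensing. In S phase Cdc45 and the GINS complex turn the loaded helicase into an active fork, where primase and polymerases copy both strands, the clamp PCNA holds polymerases on the template and a ligase joins the short fragments of the lagging strand. Ribonucleotide reductase and thymidylate enzymes feed the polymerases with deoxynucleotides. Most of these genes are transcribed under control of E2F factors when a cell passes from G1 into S phase, and resting fibroblasts express them at low levels.

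Sipa1, the targeted gene, encodes a GTPase-activating protein for the small GTPase Rap and was lower in each knockdown library, at 41.0, 43.7 and 41.4 CPM in scramble and 17.7, 20.0 and 15.2 CPM in knockdown replicates 1, 2 and 3 (log2 fold change -1.25 ± 0.0752 SE, adjusted p = 2.64e-11 by edgeR). CPM here is a gene's read count scaled to a common library size, with TMM factors. Libraries held 30930998 to 41839742 reads in genes, with the fewest in scramble replicate 2. Fibroblast markers were abundant, with a sum of 25360 to 28420 CPM over 11 genes in scramble and 25470 to 27630 CPM in knockdown libraries. Col1a1 and Col1a2 made up much of that sum, at 8267 and 6825 CPM in scramble cells. At an adjusted p under 0.05 by edgeR 3 of the 11 were lower and 0 higher, where 15.8% and 16.4% of all genes tested were. These were Tcf21 (log2 -0.84, adjusted p = 1.11e-11), Pdgfra (-0.30, 8.82e-06) and Dcn (-0.18, 0.0114). Of the other cell types looked for, 7 mesothelial markers summed to 92.5 to 99.6 CPM in scramble and 210 to 222 CPM in knockdown libraries, led by Lrrn4 and Upk3b. The 10 of 12 macrophage and leukocyte markers in the table summed to 135 to 151 and 157 to 161 CPM, 8 endothelial markers to 189 to 207 and 193 to 207 CPM, and 4 of 7 cardiomyocyte markers to 20.7 to 22.4 and 25.5 to 32.7 CPM. Csf1r, from 17.0 to 29.7 CPM, was the 1 macrophage and leukocyte marker that differed at an adjusted p under 0.05 by edgeR. Tnnt2, from 20.4 to 27.6 CPM, was the 1 such cardiomyocyte marker. Among endothelial markers Kdr and Emcn were higher and Tek lower at that threshold. The 6 of 7 mural markers in the table summed to 77.6 to 82.4 and 60.6 to 61.9 CPM, and 3 of 4 Schwann markers to 9.45 to 10.9 and 6.90 to 7.69 CPM. Cspg4 went from 43.3 to 23.5 CPM and Rgs5 from 8.615 to 6.115 CPM, while the mural marker Mcam was higher. Of the Schwann markers only S100b, from 6.32 to 2.61 CPM, passed that threshold. Reads on the 13 mitochondrially encoded protein genes made up 1.6% to 2.17% in scramble and 2.39% to 2.70% in knockdown libraries. All of these sums and the mitochondrial share, except the fibroblast and endothelial sums, differed between groups without overlap, while depth overlapped. What part these differences and the single marker changes had in the results below was not tested. In bulk RNA, a change in the share of cells in S phase and a change in RNA per cell cannot be told apart.

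Replication transcripts were modestly more abundant in the Sipa1 knockdown cells. Of the 49 genes, 32 rose and 0 fell, where 16.4% of all genes tested rose and 15.8% fell (edgeR quasi-likelihood test, Benjamini-Hochberg adjusted p under 0.05 over all 15954 genes). None of the 49 was lower at an unadjusted p under 0.05 either, and DESeq2 and limma-voom also called 0 lower. The median log2 fold change was 0.24, against -0.0013 over all genes tested, and single genes ranged from -0.12 for Fen1 to 0.66 for Gins1. In 35 of the 49 genes all 3 knockdown libraries lay above all 3 scramble libraries, which holds for 22.4% of all genes tested, and in 0 did they lie below. The authors' deposited table gives 31 of the 49 as higher and 0 as lower at an adjusted p under 0.05.

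The libraries of each group lay close together over the 49 genes. The median log2 difference from the scramble mean was 0.04, -0.06 and 0.02 in scramble replicates 1, 2 and 3, and 0.28, 0.24 and 0.27 in knockdown replicates 1, 2 and 3. Scramble replicate 2, the shallowest library, was the lowest. Summed over the 49 genes, the authors' TPM (transcript abundance scaled by length and library) was 1413, 1378 and 1396 in the scramble libraries and 1633, 1626 and 1679 in the knockdown libraries.

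**Figure D1:**
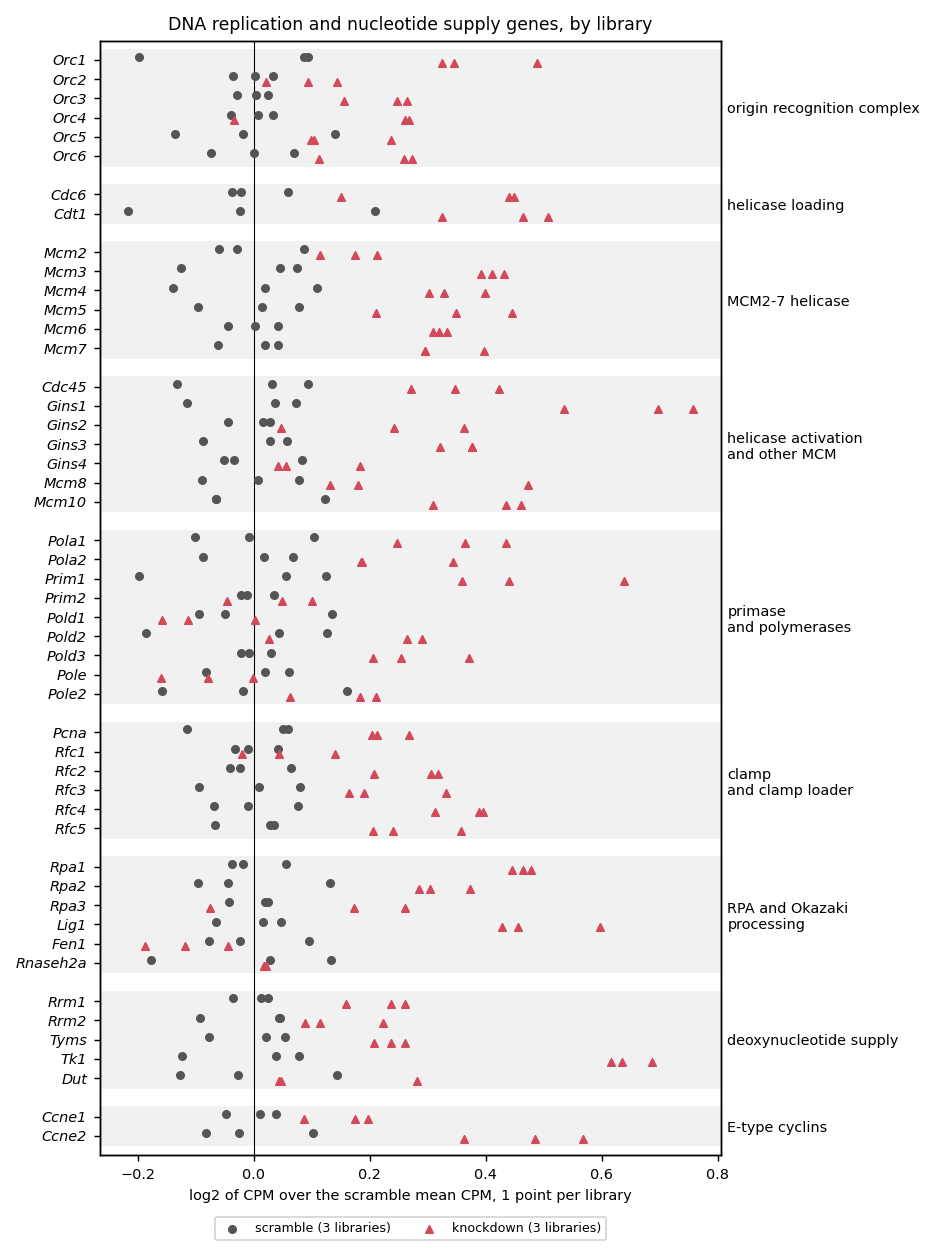
Level of each of the 49 genes in each library, as log2 of its CPM over the mean CPM of the 3 scramble libraries, with circles for scramble and triangles for knockdown and genes grouped by role. In 35 genes the 3 triangles lie to the right of all 3 circles; Fen1, Pold1 and Pole are the genes whose triangles lie mostly to the left.

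By class, 11 of 14 licensing genes rose (median log2 0.32), 16 of 28 fork genes (median 0.25), 4 of 5 nucleotide genes (median 0.22) and 1 of 2 E-type cyclins, where 16.4% of all genes tested rose. The differences between classes were not tested. In the fork class 12 of the 28 did not pass, and the 3 genes with a fold change below 0 all belong to it.

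**Figure D2:**
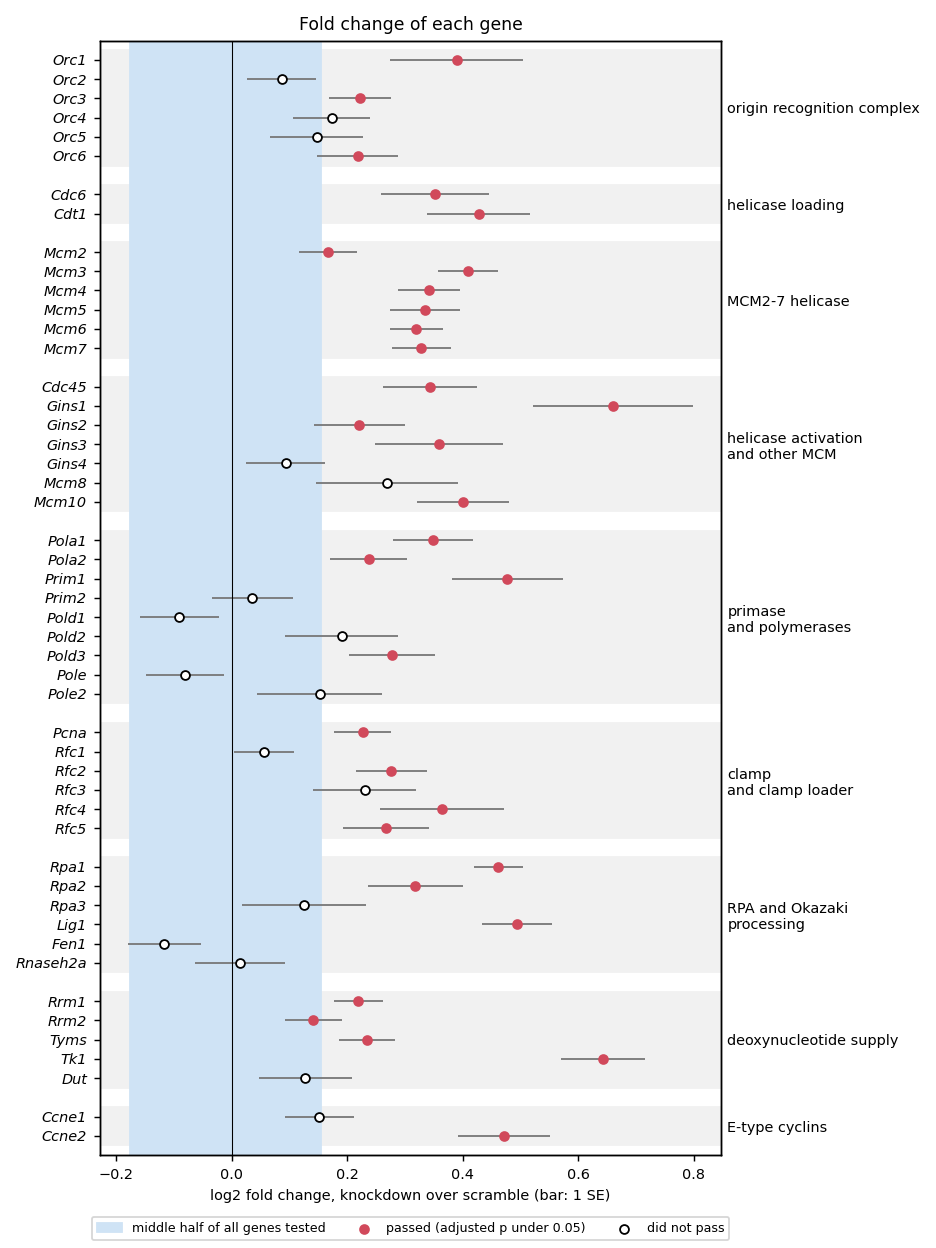
Log2 fold change of each gene, knockdown over scramble, with a bar of 1 SE; filled circles passed an adjusted p under 0.05 and open circles did not. The shaded band spans the lower to upper quartile of all 15954 genes tested, from -0.18 to 0.16, and the 6 helicase genes Mcm2 to Mcm7 all lie above it.

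All 6 subunits of the MCM2-7 helicase rose, where 16.4% of all genes tested did. Mcm3 stood at 62.1, 55.2 and 63.4 CPM in scramble replicates 1, 2 and 3 and 80.1, 79.0 and 81.3 CPM in knockdown replicates 1, 2 and 3 (log2 fold change 0.41 ± 0.0518 SE, adjusted p = 1.70e-06 by edgeR). Mcm4 stood at 81.0, 68.2 and 76.1 CPM in the scramble libraries and 92.6, 94.3 and 99.0 CPM in the knockdown libraries (log2 fold change 0.34 ± 0.054 SE, adjusted p = 3.29e-05 by edgeR). In both genes every knockdown library exceeded every scramble library, and scramble replicate 2 was the lowest. Mcm5 stood at 44.8, 39.7 and 42.9 CPM in the scramble libraries and 57.8, 49.1 and 54.0 CPM in the knockdown libraries (log2 fold change 0.34 ± 0.0607 SE, adjusted p = 1.58e-04 by edgeR). Mcm6 stood at 62.8, 59.2 and 61.1 CPM in the scramble libraries and 75.6, 76.2 and 76.8 CPM in the knockdown libraries (log2 fold change 0.32 ± 0.0461 SE, adjusted p = 9.98e-06 by edgeR). Mcm7 stood at 48.4, 45.7 and 49.1 CPM in the scramble libraries and 62.8, 58.6 and 58.5 CPM in the knockdown libraries (log2 fold change 0.33 ± 0.0512 SE, adjusted p = 2.73e-05 by edgeR). The groups did not overlap in any of these 3, and the Mcm6 libraries were the tightest. Mcm2 moved least, at 62.8, 56.7 and 58.0 CPM in the scramble libraries and 68.5, 64.1 and 66.8 CPM in the knockdown libraries (log2 fold change 0.17 ± 0.0508 SE, adjusted p = 0.0145 by edgeR). The Mcm2 groups were close, with the highest scramble library at 62.8 and the lowest knockdown library at 64.1 CPM. Its call failed without scramble replicate 2 (adjusted p = 0.0686) or scramble replicate 3 (0.068), and the adjusted p ran from 0.00675 to 0.0686 over the 16 alternatives. That Mcm2 rose less than the other subunits was seen in these values and was not tested.

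Per length, 4 of the subunits stood at like levels in scramble cells, in the authors' TPM. Mcm4 was at 48.6 ± 2.79, Mcm6 at 46.9 ± 0.82, Mcm3 at 46.3 ± 2.10 and Mcm7 at 45.5 ± 0.45 TPM (SD, n = 3), and neighbours in that order did not differ beyond their spread. Mcm2 was lower at 40.8 ± 1.56 TPM and Mcm5 lowest at 29.2 ± 0.65 TPM. In knockdown cells Mcm2 (45.2 ± 1.29 TPM) and Mcm5 (37.5 ± 4.14 TPM) again stood below the other 4, which lay between 56.3 and 60.9 TPM.

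The loaders of the helicase rose as well. Cdt1, which brings MCM2-7 to the origin, stood at 16.7, 12.4 and 14.2 CPM in scramble replicates 1, 2 and 3 and 19.9, 18.1 and 20.5 CPM in knockdown replicates 1, 2 and 3 (log2 fold change 0.43 ± 0.0895 SE, adjusted p = 7.07e-04 by edgeR). Cdc6, the ATPase that works with it, stood at 9.83, 10.5 and 9.94 CPM in the scramble libraries and 13.8, 11.2 and 13.7 CPM in the knockdown libraries (log2 fold change 0.35 ± 0.0934 SE, adjusted p = 0.00538 by edgeR). The groups did not overlap in either gene, although knockdown replicate 2 was the lowest knockdown library in both. On log2(FPKM + 1) without a filter on low values, the Cdc6 call was lost (adjusted p = 0.0744, range 0.00164 to 0.0744 over the alternatives).

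Of the origin recognition complex, 3 of 6 genes rose, where 16.4% of all genes tested did. Orc1, the subunit whose protein is cell-cycle regulated in mammals, stood at 5.06, 6.20 and 6.17 CPM in scramble replicates 1, 2 and 3 and 8.15, 7.38 and 7.27 CPM in knockdown replicates 1, 2 and 3 (log2 fold change 0.39 ± 0.115 SE, adjusted p = 0.0116 by edgeR). The Orc1 groups did not overlap, and scramble replicate 1 was the lowest. Its call failed without scramble replicate 1 (adjusted p = 0.0883) or knockdown replicate 1 (0.056), and the adjusted p ran from 0.011 to 0.0883. over the 16 alternatives Orc3 rose from 37.2 ± 0.70 to 43.4 ± 1.74 CPM (log2 fold change 0.22 ± 0.0535 SE, adjusted p = 0.00251 by edgeR), lost on unfiltered log2(FPKM + 1) (0.0636, range 0.00135 to 0.0636), and Orc6 rose from 18.9 ± 0.95 to 22.01 ± 1.33 CPM (log2 fold change 0.22 ± 0.0706 SE, adjusted p = 0.0208 by edgeR). The Orc6 call failed without scramble replicate 3 (0.106), knockdown replicate 2 (0.1) or replicate 3 of the knockdown (0.0767) and on unfiltered log2(FPKM + 1) (0.0652), and the adjusted p ran from 0.00833 to 0.106. over the 16 alternatives Orc2 (log2 0.09, SE 0.06), Orc4 (0.17, SE 0.067) and Orc5 (0.15, SE 0.0803) did not pass. For Orc4 the adjusted p was 0.053 and knockdown replicate 1, at 37.2 CPM, lay among the scramble libraries while the other 2 were at 45.6 and 45.8 CPM. Without that library Orc4 passed (log2 0.27, adjusted p = 9.09e-04), and with the replicate number as a block it passed too (0.026), and the adjusted p ran from 9.09e-04 to 0.282. over the 16 alternatives

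In scramble cells Orc1 was at 4.00 ± 0.48 TPM, below the other subunits, which lay between 17.7 and 26.8 TPM. Orc3 changed more in TPM than in counts, from 19.1 ± 1.85 to 24.9 ± 3.48 TPM (log2 0.38 against 0.22 by counts). The cause of that gap was not tested.

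The start regions of these genes are shown because most licensing genes rose and several of them carry the E2F motif there. The motif searched was TTT, then 2 bases that are each C or G, then CGC, which gives the 4 words TTTCCCGC, TTTGGCGC, TTTCGCGC and TTTGCCGC, read on both strands, and overlapping matches were kept. RefSeq windows on GRCm38.p6, from 250 bases before to 50 after a start, were at hand for 41 of the 49 genes. Of these, 16 (39.0%) held the motif in at least 1 window, against 4.54% of the 11712 tested genes with a window. By window, 32.7% of the 49 member windows held it, against 3.75% of the 14990 windows of tested genes and 2.26% of all 32851 windows of the same length. The motif was present in 8 of 13 licensing genes, 8 of 22 fork genes and 0 of 5 nucleotide genes with a window. The stretches of 100 bases printed here run 5′ to 3′ on the strand of the gene, with motif matches in capitals. Tk1 is shown as a gene that rose without a match in its window. Every printed gene rose, and Mcm8, Pold1, Pole2 and Rfc3, which held the motif but did not pass, are not printed.
Mcm3: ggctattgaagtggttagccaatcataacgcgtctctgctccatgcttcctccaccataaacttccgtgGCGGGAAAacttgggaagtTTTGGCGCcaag
Mcm5: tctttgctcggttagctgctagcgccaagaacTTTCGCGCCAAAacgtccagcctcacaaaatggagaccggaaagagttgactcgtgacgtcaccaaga
Mcm6: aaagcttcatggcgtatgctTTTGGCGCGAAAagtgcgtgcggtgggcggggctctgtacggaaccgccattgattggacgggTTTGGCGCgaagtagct
Cdc6: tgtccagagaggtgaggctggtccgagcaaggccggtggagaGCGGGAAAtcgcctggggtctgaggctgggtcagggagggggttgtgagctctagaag
Orc1: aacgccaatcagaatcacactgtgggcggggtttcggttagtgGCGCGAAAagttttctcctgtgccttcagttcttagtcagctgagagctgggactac
Cdt1: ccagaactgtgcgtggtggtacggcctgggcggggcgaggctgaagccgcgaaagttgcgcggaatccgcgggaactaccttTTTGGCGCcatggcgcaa
Lig1: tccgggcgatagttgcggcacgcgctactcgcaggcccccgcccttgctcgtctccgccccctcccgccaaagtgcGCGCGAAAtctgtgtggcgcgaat
Tk1: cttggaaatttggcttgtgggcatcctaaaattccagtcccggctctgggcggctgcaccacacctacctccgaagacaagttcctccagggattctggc

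The Mcm3 stretch lies at chr1:20820263-20820362, reverse strand, with matches that begin 19 and 38 bases after the start. The Mcm5 stretch lies at chr8:75109324-75109423, forward strand, and its single run of capitals is a pair of overlapping matches, 1 on each strand. Mcm6 lies at chr1:128359736-128359835, reverse strand, with such an overlapping pair and another match nearer to the start. Cdc6 lies at chr11:98907971-98908070, forward strand, Orc1 at chr4:108579384-108579483, forward strand, and Cdt1 at chr8:122567965-122568064, forward strand. The RefSeq bounds of Cdc6 and Orc1 begin earlier, at chr11:98907709 and chr4:108575705, so their stretches lie inside the gene, by a later start. Lig1 lies at chr7:13278776-13278875, forward strand, in 1 of its 3 windows, and Tk1 at chr11:117825975-117826074, reverse strand. Their RefSeq bounds begin at chr7:13277175 for Lig1 and, on the reverse strand, at chr11:117826087 for Tk1. These stretches thus also lie inside the gene. Of the 16 genes with a match 12 rose (median log2 0.33, from -0.09 to 0.49), and of the 25 with a window and no match 15 rose (median 0.22, from -0.12 to 0.64). Over all tested genes with a window, 23.3% of the 532 with a match rose and 17.3% of the 11180 without one. A match describes letters in a window, and binding was not measured. Another motif, the CHR element TTTGAA that is known from genes expressed late in the cycle, was found on either strand in 5 of the 41 genes with a window (12.2%) and in 15.0% of tested genes, while 11 of 15 mitosis genes held it.

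Of the factors that turn the loaded helicase into a fork, 4 of the 5 named for the Cdc45-MCM-GINS helicase rose. The share over all genes tested was 16.4%. Cdc45 stood at 13.0, 11.6 and 13.5 CPM in scramble replicates 1, 2 and 3 and 17.0, 15.3 and 16.1 CPM in knockdown replicates 1, 2 and 3 (log2 fold change 0.34 ± 0.0815 SE, adjusted p = 0.00223 by edgeR). Gins1 had the largest fold change of the 49 genes from a low level, at 3.18, 2.86 and 3.26 CPM in the scramble libraries and 5.25, 4.49 and 5.03 CPM in the knockdown libraries (log2 fold change 0.66 ± 0.138 SE, adjusted p = 7.08e-04 by edgeR). The groups did not overlap in either gene, and Gins1 had at least 91 reads in each library. Gins3 rose by 0.36 on the log2 scale (SE 0.111, edgeR adjusted p = 0.0154), a call not made without scramble replicate 1 (0.0784, range 0.0154 to 0.0784). Gins2 rose by 0.22 (SE 0.079, edgeR adjusted p = 0.0354), with knockdown replicate 3 at 17.2 CPM just above the highest scramble library at 17.0 CPM. The Gins2 call was lost in 8 of 16 alternatives, among them DESeq2 (0.0538), limma-voom (0.0501), unfiltered log2(FPKM + 1) (0.0782) and the fits without scramble replicate 1 (0.0741), 2 (0.0966) or 3 (0.0643) or knockdown replicate 1 (0.188) or 2 (0.115), and the adjusted p ran from 0.00671 to 0.188. over the 16 alternatives In the GENCODE annotation 70.7% of the exon bases of Gins2 are shared with Gse1 on the opposite strand, and no source at hand states whether counting kept the strands apart. Gins4 stood at log2 0.09 (SE 0.0683, edgeR adjusted p = 0.328) and did not pass.

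Mcm10, which helps to start the fork, rose from 13.5 ± 1.03 to 17.8 ± 0.98 CPM (log2 fold change 0.40 ± 0.0794 SE, adjusted p = 4.08e-04 by edgeR). Mcm8, an MCM relative known from recombination and not part of the hexamer, did not pass (log2 0.27, SE 0.123, edgeR adjusted p = 0.104), although its knockdown libraries lay above the scramble libraries. Mcm8 was the least abundant of the 49 genes in scramble cells, at 3.48 ± 0.19 TPM.

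Of the primase and polymerase genes, 4 of 9 rose, where 16.4% of all genes tested did. Within polymerase alpha-primase, which lays down the first stretch of each fragment, the catalytic subunit Pola1 rose from 21.6 ± 1.54 to 27.5 ± 1.79 CPM (log2 fold change 0.35 ± 0.0693 SE, adjusted p = 4.27e-04 by edgeR) and the small primase subunit Prim1 from 10.3 ± 1.17 to 14.4 ± 1.46 CPM (log2 fold change 0.48 ± 0.096 SE, adjusted p = 4.71e-04 by edgeR). Pola2 rose by 0.24 (SE 0.0666, edgeR adjusted p = 0.00827), a call not made without knockdown replicate 3 (0.0681, range 0.00543 to 0.0681). The large primase subunit Prim2 did not pass (log2 0.04, SE 0.0703, edgeR adjusted p = 0.756). The catalytic subunits of the main fork polymerases did not pass. Pold1, of polymerase delta, stood at 27.1, 26.3 and 30.8 CPM in the scramble libraries and 28.1, 26.0 and 25.2 CPM in the knockdown libraries (log2 fold change -0.09 ± 0.0683 SE, adjusted p = 0.343 by edgeR). Pole, of polymerase epsilon, stood at 24.7, 22.4 and 24.0 CPM in the scramble libraries and 23.7, 22.4 and 21.2 CPM in the knockdown libraries (log2 fold change -0.08 ± 0.0671 SE, adjusted p = 0.394 by edgeR). In both genes the groups overlapped, and the lowest library was knockdown replicate 3. The accessory subunit Pold3 rose from 14.9 ± 0.28 to 18.1 ± 1.09 CPM (log2 fold change 0.28 ± 0.0739 SE, adjusted p = 0.00556 by edgeR), while Pold2 (log2 0.19, SE 0.0974) and Pole2 (0.15, SE 0.108) did not pass.

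The sliding clamp gene Pcna was the most abundant of the 49 per length, at 147 ± 5.29 TPM in scramble cells. It stood at 83.3, 73.8 and 82.8 CPM in scramble replicates 1, 2 and 3 and 96.3, 92.7 and 92.1 CPM in knockdown replicates 1, 2 and 3 (log2 fold change 0.23 ± 0.0496 SE, adjusted p = 0.00106 by edgeR). The groups did not overlap, with scramble replicate 2 lowest. The table also lists the pseudogene Pcna-ps2, so the split of reads between the copies is uncertain. Of the 5 subunits of the clamp loader RFC, Rfc2 rose from 24.9 ± 1.00 to 30.1 ± 1.25 CPM (log2 fold change 0.28 ± 0.0613 SE, adjusted p = 0.00122 by edgeR), Rfc4 by 0.36 (edgeR adjusted p = 0.0113) and Rfc5 by 0.27 (edgeR adjusted p = 0.00818). The Rfc5 call failed without knockdown replicate 3 (0.0547, range 0.0072 to 0.0547). Rfc3 just missed the threshold (log2 0.23, SE 0.089, edgeR adjusted p = 0.0518) and passed on filtered log2(FPKM + 1) (0.0314) and log2(FPKM + 0.1) (0.031), and the adjusted p ran from 0.031 to 0.2. over the 16 alternatives The large subunit Rfc1 did not pass (log2 0.06, SE 0.0518, edgeR adjusted p = 0.457).

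Single-strand binding and fragment processing held both the smallest adjusted p and the lowest fold change of the 49 genes. Rpa1, the large subunit of the single-strand binding complex RPA, stood at 104, 97.5 and 98.8 CPM in scramble replicates 1, 2 and 3 and 139, 136 and 138 CPM in knockdown replicates 1, 2 and 3 (log2 fold change 0.46 ± 0.0428 SE, adjusted p = 1.69e-08 by edgeR). The knockdown libraries of Rpa1 lay within 136 to 139 CPM, well above the highest scramble library. Rpa2 rose by 0.32 (edgeR adjusted p = 0.00462), and Rpa3 did not pass (log2 0.13, SE 0.107). Per length the 3 subunits were unequal in scramble cells, with Rpa1 at 76.5 ± 1.91, Rpa3 at 27.3 ± 0.10 and Rpa2 at 15.6 ± 1.02 TPM.

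Lig1, the ligase that seals lagging-strand fragments, stood at 28.0, 26.0 and 27.5 CPM in scramble replicates 1, 2 and 3 and 36.5, 37.2 and 41.0 CPM in knockdown replicates 1, 2 and 3 (log2 fold change 0.49 ± 0.0607 SE, adjusted p = 1.15e-06 by edgeR). Fen1, the flap nuclease that acts just before it, stood at 32.0, 28.4 and 29.4 CPM in the scramble libraries and 27.6, 29.0 and 26.3 CPM in the knockdown libraries (log2 fold change -0.12 ± 0.0632 SE, adjusted p = 0.171 by edgeR). The Lig1 groups were far apart, whereas those of Fen1 overlapped with knockdown on the lower side. For Fen1, 78.8% of its annotated exon bases are shared with Gm10143 on the opposite strand, so its level is uncertain if strand was not used in counting. Other members share smaller parts of their exon bases with opposite-strand genes, with the same uncertainty. The largest of these parts were 24.0% for Orc2, 19.1% for Rfc2, 15.4% for Rfc5 and 13.4% for Rfc4. Rnaseh2a, the catalytic subunit of an enzyme that removes RNA primers, did not pass (log2 0.01, SE 0.0784, edgeR adjusted p = 0.917). Its sign turned to -0.07 without scramble replicate 2 (adjusted p = 0.586), again without a call, with adjusted p from 0.517 to 0.973 over the alternatives.

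**Figure D3:**
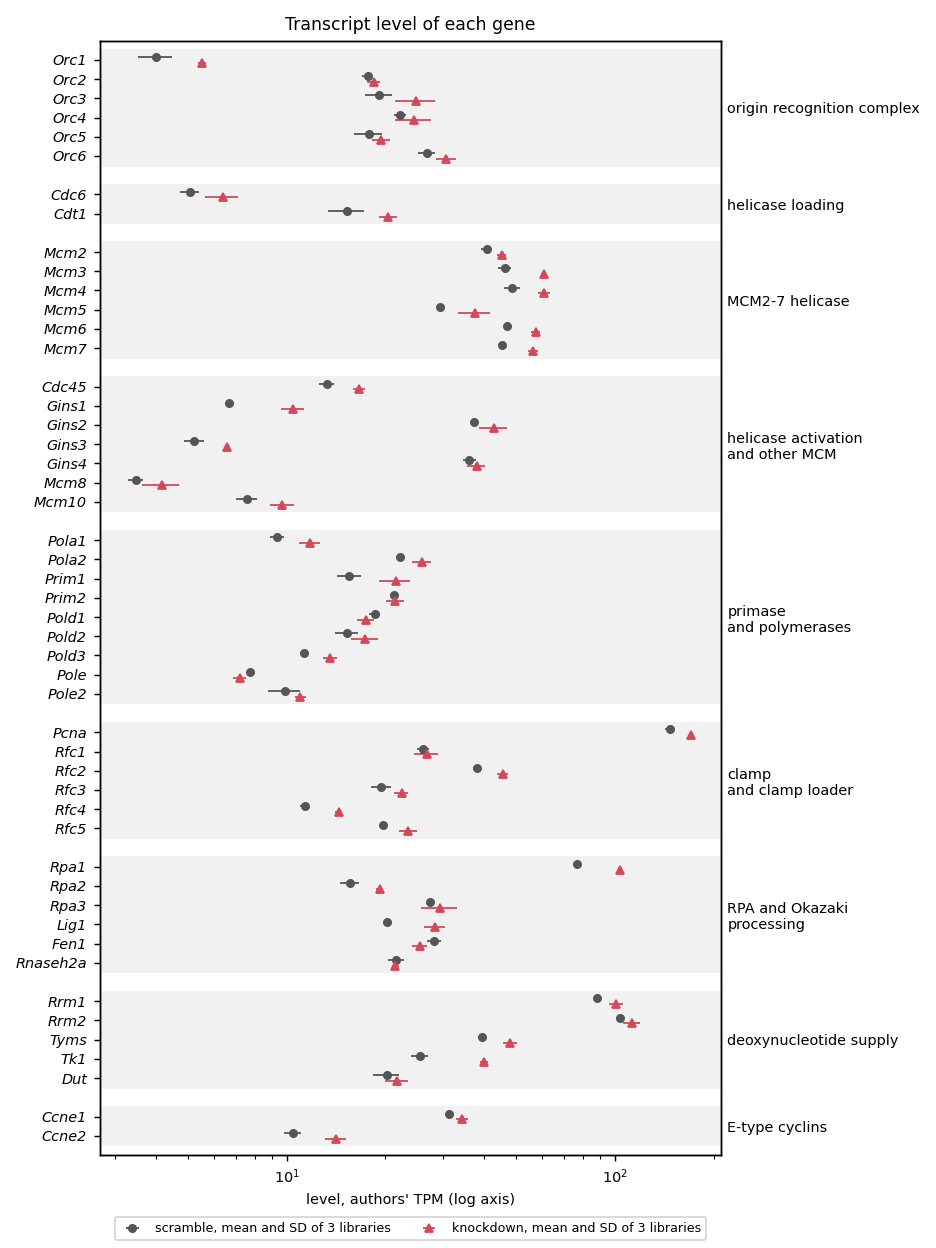
Transcript level of each gene in the authors' TPM on a log axis, as mean and SD of 3 scramble libraries (circles) and 3 knockdown libraries (triangles). Pcna and the ribonucleotide reductase genes Rrm1 and Rrm2 lie highest in scramble cells, at 147, 88.0 and 103 TPM, and Mcm8 and Orc1 lowest, at 3.48 and 4.00 TPM.

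Among nucleotide enzymes Tk1 stood apart in size. Tk1, the S-phase thymidine kinase of the salvage route, stood at 15.3, 13.3 and 14.9 CPM in scramble replicates 1, 2 and 3 and 22.5, 22.2 and 23.3 CPM in knockdown replicates 1, 2 and 3 (log2 fold change 0.64 ± 0.0726 SE, adjusted p = 3.33e-07 by edgeR), 56.1% higher by its fold change. The knockdown libraries spanned 22.2 to 23.3 CPM, far from the highest scramble library. Tyms, which makes thymidylate by the de novo route, stood at 66.5, 60.7 and 65.0 CPM in the scramble libraries and 74.0, 75.5 and 76.8 CPM in the knockdown libraries (log2 fold change 0.23 ± 0.048 SE, adjusted p = 5.73e-04 by edgeR). Rrm1, the large subunit of ribonucleotide reductase, stood at 152, 147 and 154 CPM in the scramble libraries and 169, 181 and 178 CPM in the knockdown libraries (log2 fold change 0.22 ± 0.0429 SE, adjusted p = 3.55e-04 by edgeR). Neither gene overlapped between groups, and they rose by 17.6% for Tyms and 16.4% for Rrm1. Rrm2, the small subunit that is made in S phase, stood at 100.2, 91.0 and 100.0 CPM in the scramble libraries and 105, 103 and 113 CPM in the knockdown libraries (log2 fold change 0.14 ± 0.0491 SE, adjusted p = 0.0308 by edgeR). Its groups were close, and the call failed without scramble replicate 2 (0.164) or knockdown replicate 3 (0.194) and on unfiltered log2(FPKM + 1) (0.0711), and the adjusted p ran from 0.0133 to 0.194. over the 16 alternatives Dut, which removes dUTP, stood at 22.3, 19.8 and 18.5 CPM in the scramble libraries and 24.6, 20.8 and 20.9 CPM in the knockdown libraries (log2 fold change 0.13 ± 0.0799 SE, adjusted p = 0.245 by edgeR). The Dut groups overlapped, with scramble replicate 1 above 2 of the knockdown libraries.

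The E-type cyclins activate Cdk2 at the entry into S phase. Ccne2 stood at 14.2, 12.5 and 13.0 CPM in scramble replicates 1, 2 and 3 and 19.6, 18.5 and 17.0 CPM in knockdown replicates 1, 2 and 3 (log2 fold change 0.47 ± 0.0796 SE, adjusted p = 6.98e-05 by edgeR). Ccne1 stood at 26.5, 25.5 and 27.1 CPM in the scramble libraries and 29.7, 28.0 and 30.2 CPM in the knockdown libraries (log2 fold change 0.15 ± 0.0602 SE, adjusted p = 0.059 by edgeR). Neither overlapped between groups, but Ccne1 missed the threshold. Ccne1 passed without knockdown replicate 2 (0.0485), with a replicate block (0.0476) and on log2(FPKM + 1) filtered (0.0387) or not (0.0418) and log2(FPKM + 0.1) (0.0384), and the adjusted p ran from 0.0384 to 0.186. over the 16 alternatives

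Ratios between 2 members of the list within each library were compared for 4 pairs. The log2 ratio of Ccne1 over Ccne2 was 0.90, 1.03 and 1.06 in scramble and 0.60, 0.60 and 0.83 in knockdown replicates 1, 2 and 3, a mean difference of -0.32 (exact two-sided permutation p = 0.1, adjusted over the pairs 0.2). The ratio of Cdc6 over Orc2 went from -1.42 ± 0.06 to -1.16 ± 0.12 (SD, n = 3 each; exact permutation p = 0.1, adjusted 0.2). For Pcna over Rfc1 the mean difference was 0.18 (exact permutation p = 0.2, adjusted 0.267), and for Rrm2 over Rrm1 -0.08 (exact permutation p = 0.3, adjusted 0.3). With 3 against 3 libraries 0.1 is the smallest p the test can give, so none could pass. The groups did not overlap in the first 2 pairs and overlapped in the others.

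Lists of genes that act with the replication machinery, also chosen with earlier results known, held rising genes as well. Over all genes tested 16.4% rose and 15.8% fell, and how far each list differed from these shares was not tested. Of 17 licensing and firing regulators 7 rose and 0 fell (median 0.18). They include Dtl, of the ligase that destroys Cdt1 in S phase (0.50 on the log2 scale), the phosphatase Cdc25a (0.45), the S-phase cyclin Ccna2 (0.28) and Gmnn, the inhibitor of Cdt1, which went from 10.2 ± 0.71 to 13.9 ± 1.06 CPM (log2 fold change 0.45 ± 0.0886 SE, adjusted p = 3.85e-04 by edgeR). Of 23 fork accessory and chromatin assembly genes 7 rose and 0 fell (median 0.13), with Dnmt1, the maintenance DNA methyltransferase, at 0.28, its partner Uhrf1 at 0.27 and the histone chaperone subunit Chaf1b at 0.31. Of 10 replication checkpoint genes 3 rose and 0 fell (median 0.09), namely the kinases Wee1 (0.47), Atr (0.30) and Chek1 (0.38, or 0.25 on log2(FPKM + 1)). The Atr call was lost on FPKM values (adjusted p = 0.0679 to 0.11, the highest over all alternatives; the lowest was 5.40e-04). In these 3 lists 0 genes were lower at an unadjusted p under 0.05, and DESeq2 and limma-voom also called 0 lower.

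Other nucleotide enzymes were looked at in 2 lists. Of 16 de novo purine and pyrimidine genes 5 (31.2%) rose and 0 fell (median 0.12), against 16.4% and 15.8% of all genes tested. The 5 rose by 0.14 to 0.26 on the log2 scale, and those with the smallest adjusted p were Umps (0.26), Mthfd1 (0.19) and Ctps (0.16). There too 0 were lower at an unadjusted p under 0.05 or by DESeq2 and limma-voom. The Mthfd1 call was lost on FPKM values (adjusted p = 0.0612 to 0.0964, the highest over the alternatives; the lowest was 0.00231). Of 12 other deoxynucleotide enzymes 3 rose and 2 fell (median 0.01), near the 16.4% and 15.8% of all genes tested. Among them the kinases Dck and Nme1 rose by 0.19 and 0.13, and the mitochondrial thymidine kinase Tk2 (-0.25) and the pyrophosphatase Dctpp1 (-0.41) fell. The count of 3 rising genes went to 0 when either scramble replicate 1, scramble replicate 3 or knockdown replicate 3 was left out, and to 1 without scramble replicate 2 or knockdown replicate 1, and the count of 2 falling genes went to 1 without scramble replicate 3.

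Of 20 E2F, RB and MuvB factors, which control the G1 to S transition, 4 rose and 2 fell (median 0.09), near the 16.4% and 15.8% of all genes tested. E2f5 rose by 0.49, E2f8, a repressor of the family, by 0.45 and Mybl2 by 0.31, while Rb1, which restrains E2F activity, fell from 23.1 ± 1.04 to 18.4 ± 1.00 CPM (log2 fold change -0.33 ± 0.069 SE, adjusted p = 7.86e-04 by edgeR) and Myc fell by 0.17. The activator E2f1 did not pass, at 30.6 ± 2.48 to 33.4 ± 2.17 CPM (log2 fold change 0.13 ± 0.066 SE, adjusted p = 0.15 by edgeR). E2f2 (log2 0.38), E2f3 (0.09), E2f4 (0.14), E2f6 (0.06) and E2f7 (-0.01) did not pass either. Without scramble replicate 1 both E2f1 (0.0446) and E2f4 (0.0103) passed, and E2f4 also with a replicate block (0.0476). Mybl2 did not pass without scramble replicate 3 (0.0782) or on unfiltered log2(FPKM + 1) (0.0860). Over all alternatives the adjusted p ranged from 0.0446 to 0.443 for E2f1, 0.0103 to 0.361 for E2f4 and 0.00626 to 0.086 for Mybl2.

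Of 12 G1 cyclins, kinases and inhibitors, 7 fell and 2 rose (median -0.16), where 15.8% of all genes tested fell and 16.4% rose. The rising share, 16.7%, was thus near that of all genes. The D-type cyclins split: Ccnd3 rose from 83.9 ± 5.63 to 144 ± 9.09 CPM (log2 fold change 0.78 ± 0.0528 SE, adjusted p = 1.44e-10 by edgeR), whereas Ccnd2 and Ccnd1 fell by 0.19 and 0.18 and their partner kinase Cdk4 fell by 0.28. Among inhibitors Cdkn2b fell from 25.6 ± 0.53 to 17.98 ± 0.64 CPM (log2 fold change -0.51 ± 0.065 SE, adjusted p = 1.85e-06 by edgeR), Cdkn1c fell by 1.91 from a low level, 1.39 to 0.369 CPM (-0.47 on log2(FPKM + 1), a scale that understates low genes), and Cdkn2c rose by 0.21. The Cdkn2c call failed without scramble replicate 2 (0.0696) or knockdown replicate 1 (0.0744; range 0.0111 to 0.0744), which leaves 1 rising gene. Cdkn1a, the inhibitor p21 known as a p53 target, stood at 327 ± 1.74 to 351 ± 1.15 CPM (log2 fold change 0.10 ± 0.0399 SE, adjusted p = 0.0592 by edgeR). It passed with library size only (0.0479), DESeq2 (0.032), limma-voom (0.0489) and on FPKM values (0.0352 to 0.0398), and the adjusted p ran from 0.032 to 0.149. over the 16 alternatives

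Of 18 mitosis genes 11 (61.1%) rose and 0 fell (median 0.21), against 16.4% and 15.8% of all genes tested. At an unadjusted p under 0.05 0 were lower, and 0 by DESeq2 or limma-voom. Mki67, a marker of cycling cells, went from 129.7 ± 1.17 to 160.1 ± 13.0 CPM (log2 fold change 0.30 ± 0.05 SE, adjusted p = 5.10e-05 by edgeR), and Cdk1 and Tpx2 rose by 0.29 and 0.28. A difference between the mitosis and replication lists was not tested.

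**Figure D4:**
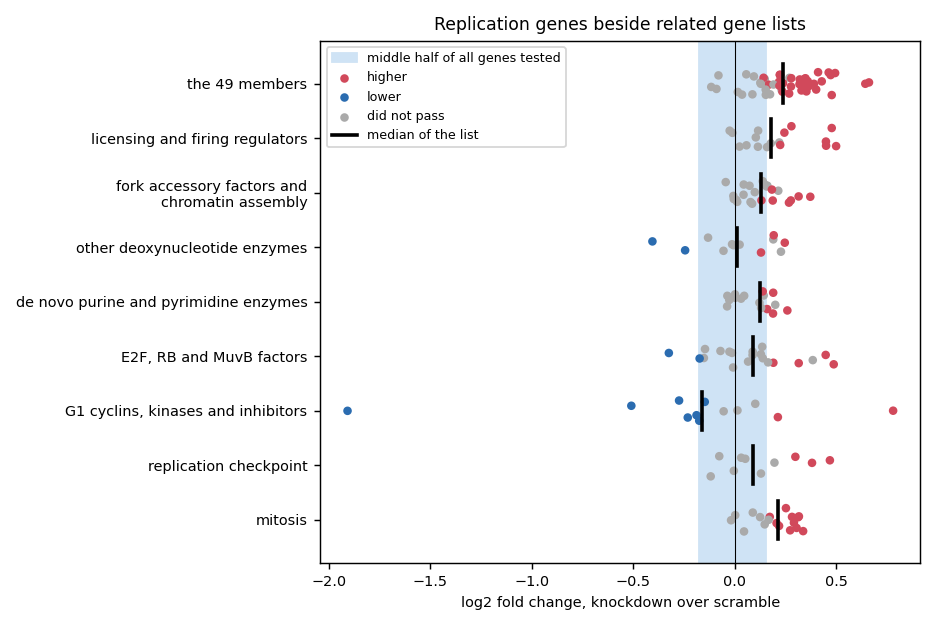
Log2 fold change of the 49 genes and of 8 related lists, 1 point per gene, red for higher, blue for lower and grey for genes that did not pass, with a black bar at each list's median. Medians run from -0.16 for G1 cyclins, kinases and inhibitors to 0.24 for the 49 genes, and the shaded band spans the lower to upper quartile of all genes tested.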

How the data were processed

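Strand-marking TruSeq libraries of poly(A) RNA were read as pairs of 100 bases, per the labels' protocols. The submitters' processing notes name HISAT2, StringTie and mouse build mm10, with no version. All 6 deposited files hold 1 and the same table. It gives whole read counts, deposited without scaling, with at least 1 read for every gene in every library. FPKM and TPM values, and an adjusted p-value and signed fold score from a comparison by an unstated tool, were also deposited by the authors.

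The main test was the edgeR (version 4.0.16, R 4.3.3) quasi-likelihood test, two-sided and robust, by group, after TMM scaling and the package's own expression filter. Benjamini-Hochberg adjustment covered the 15954 genes left, at a threshold of 0.05. Levels are mean ± SD, and an SE is the log2 fold change over the root of F. Depth was 30930998 to 41839742 reads in genes. Samples were grouped by title. The 16 alternatives were RLE factors, unscaled library sizes, no filter, a minimum of 1 CPM in 3 libraries, DESeq2 1.42.0, limma-voom (limma 3.58.1), a replicate block, the omission of each library, and limma on the log2 of FPKM. For the last, 1 or 0.1 was added and genes under a mean FPKM of 0.5 in both groups were dropped, or 1 was added and none dropped. The script was first tested on simulated data. Motifs were counted in Python 3.11.15 on RefSeq start windows (GRCm38.p6), and exon overlaps on GENCODE M21. The members and lists were chosen with earlier results of these data known. Genes given by library were set by role, with the 3 largest and 3 smallest fold changes, and Rpa1 was added for its adjusted p. Related genes named are up to 3 rising and 3 falling per list with the smallest adjusted p, with Gmnn, E2f1 to E2f8, Cdkn1a and Mki67, except 1 that is not reported here; Ccnd1 and Ccnd2 were added after their values were seen.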

Additional observations from a re-analysis of the deposited data

How the results depend on the processing

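Over the 16 alternative settings the count of rising genes among the 49 stayed within 1.5 times of 32. It was 28 to 31 with 1 library left out and 28 to 34 otherwise, and the count of falling genes was 0 in every one. Rising licensing genes numbered 9 to 11 with 1 library left out, fork genes 14 to 15 and nucleotide genes 3 to 4. For all genes the counts were 2128 to 2433 higher and 2024 to 2384 lower with 1 library left out. In all, 22 of the 49 genes were called higher under all 17 settings, and 35 kept both direction and side of the threshold throughout; of 784 recomputed values, 750 kept direction and call, 24 lost a call, 9 gained one and 1 changed sign (Rnaseh2a, -0.0654 without scramble replicate 2, with a leave-one-out range of -0.0654 to 0.0866). Among the 38 related genes named, E2f7 changed sign without scramble replicate 1 (0.0037) or knockdown replicate 2 (0.0662); leave-one-out values ran from -0.0925 to 0.0662. The 3 rising deoxynucleotide enzymes became 1 with RLE factors, unscaled library sizes, a minimum of 1 CPM or DESeq2 and 0 on unfiltered log2(FPKM + 1). The 5 rising purine and pyrimidine genes became 3 on log2(FPKM + 0.1) and 2 on unfiltered log2(FPKM + 1), where the 4 rising E2F, RB and MuvB factors became 2. Dck and Nme1 lost their call in 12 and 14 of 16 settings. The cause of these changes was not tested. Sipa1 stayed between -1.36 and -1.15 with 1 library left out. Same-numbered scramble and knockdown libraries did not deviate together (r = 0.002, -0.019 and -0.014 for numbers 1, 2 and 3). No pairing by number was seen in these values, which cannot show whether same-numbered samples shared a culture or animal. With a replicate block 34 of the 49 genes were higher. With 1 library left out the within-library log2 ratios differed between groups by -0.11 to -0.03 for Rrm2 over Rrm1, -0.40 to -0.28 for Ccne1 over Ccne2, 0.21 to 0.33 for Cdc6 over Orc2 and 0.12 to 0.23 for Pcna over Rfc1. Precision differed by gene, with SEs on the log2 scale from 0.0428 for Rpa1 to 0.138 for Gins1, the latter at 91 to 197 reads a library.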
